A study of Homo sapiens with 8 samples.

Results

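Ketone-body and acyl-CoA synthetase genes were followed through arrays of HEK293T cells in which TET1 was targeted by shRNA or supplied from a plasmid. The 7 symbols were OXCT1, ACAT1, BDH1, BDH2, ACSS1, ACSS2 and ACSS3. Their transcript clusters, the units for which the array gives 1 value, were found by platform gene symbol, and of several clusters the 1 with the highest mean over the 8 arrays was taken. This gave 5 genes of 14884 different symbols with a transcript cluster. BDH1 and BDH2 had no transcript cluster named in the platform table and were not analysed here. The set was chosen by measured values: OXCT1 and ACSS3 held ranks 4 and 6 from the lowest of 11560 named clusters in TET1 shRNA minus control shRNA, and the other symbols share their pathways. All values of that comparison are therefore descriptions, with no test.

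HEK293T is a human embryonic kidney line that carries SV40 large T antigen. The shRNA side had 3 lentiviral clones, namely shTET1#1 and shTET1#2, each with a different shRNA against TET1, and a control shRNA clone. The plasmid side had 5 arrays, namely wild-type TET1-CD and TET1-FL, their catalytic mutants mTET1-CD and mTET1-FL, and the empty vector, all from transfected cells collected by fluorescence sorting on day 3. There was 1 array for each clone and plasmid, and no label names separate cultures, so a p-value measures only the spread that the fit below describes. Each shRNA line is a clone, and clone and shRNA cannot be told apart. The shRNA and plasmid arrays also differ in lentivirus, transfection and sorting, which cannot be told apart.

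Ketone bodies carry acetyl units between tissues. A cell that uses them oxidises 3-hydroxybutyrate to acetoacetate with BDH1, moves coenzyme A from succinyl-CoA to acetoacetate with OXCT1, and splits the product into acetyl-CoA with the thiolase ACAT1. The ACSS enzymes make short-chain acyl-CoA directly from free acids with ATP. ACSS1 works on acetate in mitochondria, ACSS2 on acetate in cytosol and nucleus, and ACSS3 is a mitochondrial enzyme that prefers propionate.

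Values are deposited log2 signals, and array medians lay between 5.47 and 5.55. Pairs of arrays correlated at r of 0.932 to 0.988 over the 28946 transcript clusters kept, those above their own array's median on at least 2 arrays. All 6 clusters of the 5 genes were kept. TET1 cluster 16705381 gave 8.62 in shTET1#1, 9.14 in shTET1#2 and 9.29 in the control clone, and cluster 16715048 gave 5.27, 6.20 and 5.71. In these signals the sample of the second shRNA showed little or no TET1 RNA deficit, so it is called the array labelled shTET1#2. TET1 protein was not analysed here. Cluster 16715048 gave 12.10 with TET1-CD, 11.80 with TET1-FL, 12.03 with mTET1-CD and 11.91 with mTET1-FL, against 5.86 with the vector. Cluster 16705381 gave 10.42, 12.22, 11.05 and 12.47 in the same order, against 9.51 with the vector. In 16705381 the wild-type signal was lower than the mutant signal for both constructs. Of 7 genes reported in HEK293 cells, 4 had a cluster (PAX2, KRT8, KRT18 and VIM), and each lay above the median on all 8 arrays. Of 5 hepatocyte genes 4 had one, with ALB and FGB below the median on every array and APOA1 and TTR above it. Both measured fibroblast genes, DCN and LUM, lay below it throughout, and the blood and heart muscle lists had 0 named clusters.

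OXCT1, the enzyme that commits acetoacetate to oxidation, varied most among the 5 genes. RefSeq places it on the minus strand of chromosome 5. Cluster 16995809 stood at 6.21 for shTET1#1 and 4.93 for the array labelled shTET1#2, against 7.93 in the control clone. The control clone was the highest of the 8 arrays and the array labelled shTET1#2 the lowest. The differences were -1.72 and -3.00, which is 3.30-fold and 7.99-fold lower than the control clone. The fitted difference was -2.36 ± 0.52 (SE, log2), or 5.13-fold, and the clones' mean was 5.57 ± 0.90 (SD, n = 2). The value of 4.93 lies below its array's median. In bulk RNA, fewer cells that express a gene and less RNA per cell cannot be told apart.

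The size of the OXCT1 difference depended on which array served as the control. The empty vector gave 6.42, so the control clone stood 1.51 above it, or 2.85-fold, and 2.46% of kept clusters were at least 2-fold higher in the control clone than in the vector. Against the vector, shTET1#1 differed by -0.21 and the array labelled shTET1#2 by -1.48. TET1-CD gave 7.07 and TET1-FL 6.84, and the mutants mTET1-CD and mTET1-FL gave 6.94 and 6.75. From high to low, the order was thus the control clone, the 4 plasmids, the vector, shTET1#1 and the array labelled shTET1#2. The plasmids averaged 6.90 ± 0.14 (SD, n = 4). Neighbours in the order above were closer than the SD of 0.90 between the TET1 shRNA clones, except shTET1#1 and the array labelled shTET1#2. The order of the other arrays is therefore not settled.

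OXCT1 had a second transcript cluster, 16984331, which ran the other way. It stood at 5.53 for shTET1#1 and 6.19 for the array labelled shTET1#2, against 5.12 in the control clone, differences of 0.40 and 1.06. The 5 plasmid and vector arrays gave 5.67 to 5.88. Of the 20 named clusters with the nearest identifiers, 20 belong to genes on the plus strand of chromosome 5, whereas for cluster 16995809 19 of 20 belong to genes on the minus strand, that of OXCT1. Which strand the probes of 16984331 read was not analysed here. Its values were kept apart from those of 16995809, except in the mean of both clusters among the alternatives below.

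**Figure D1:**
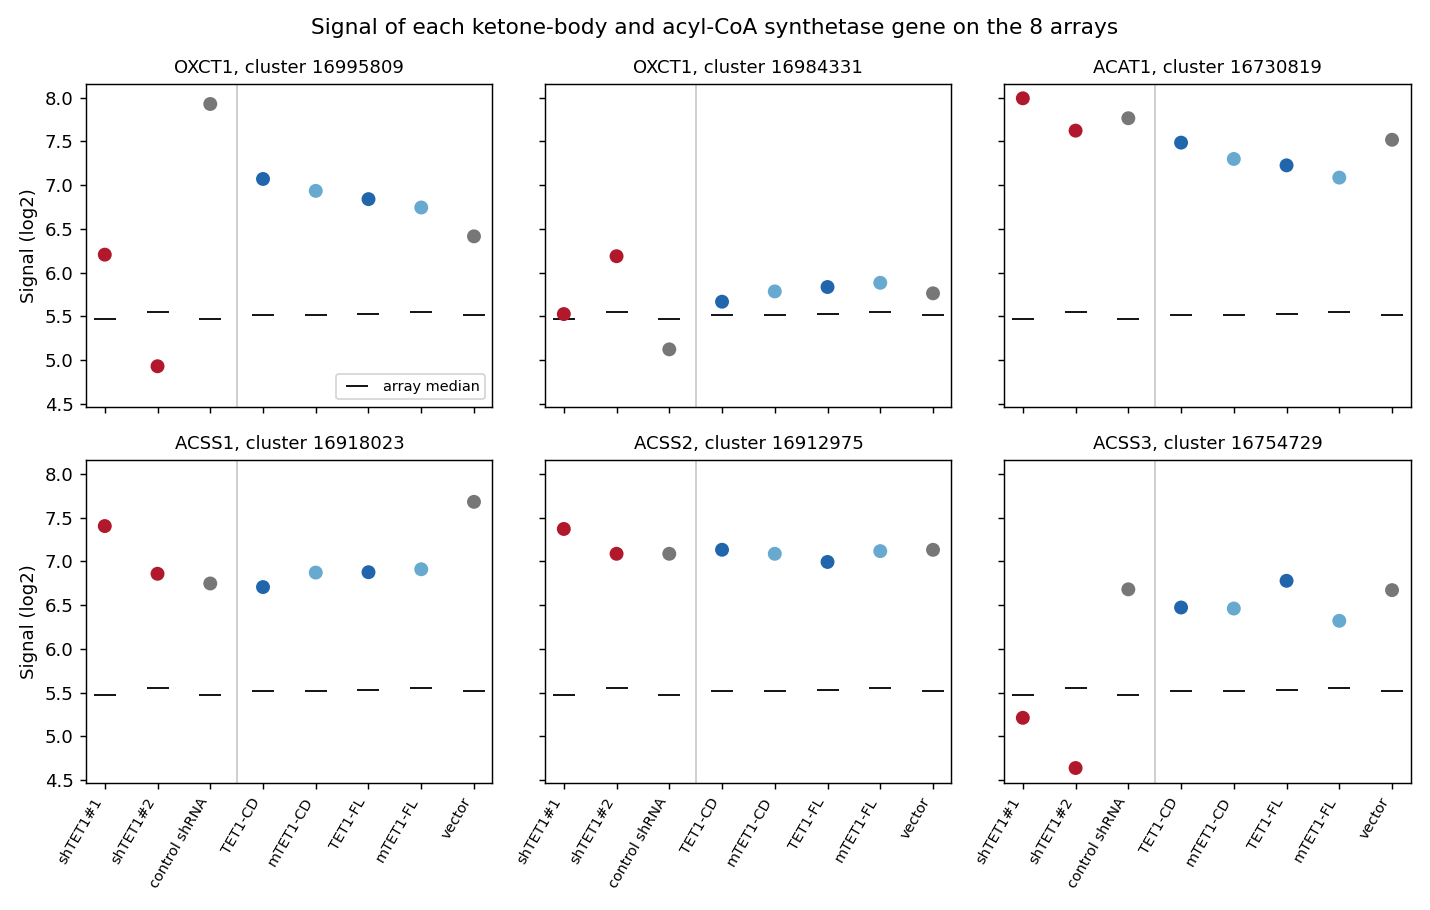
Signal (y axis, log2) of the 6 transcript clusters on each of the 8 arrays (x axis), 1 point per array, with TET1 shRNA clones in red, wild-type plasmids in dark blue, mutant plasmids in light blue, controls in grey and short black lines at each array's median. OXCT1 16995809 and ACSS3 are lowest in the TET1 shRNA clones, ACSS1 is highest with the vector at 7.68, and ACSS2 lies between 6.99 and 7.37 throughout.

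The promoter windows of OXCT1 are shown because TET1 oxidises 5-methylcytosine, which in human DNA lies mostly at CG. RefSeq windows for GRCh38.p14 matched 6 of the 7 symbols. Each sequence below is the 250 bases before an annotated transcript start, read 5′ to 3′ on the gene's strand, with every CG in capitals (CG reads the same on both strands). Methylation was not analysed here, so the sequences carry no measured mark.
OXCT1, window 1, chr5:41870426-41870675, minus strand: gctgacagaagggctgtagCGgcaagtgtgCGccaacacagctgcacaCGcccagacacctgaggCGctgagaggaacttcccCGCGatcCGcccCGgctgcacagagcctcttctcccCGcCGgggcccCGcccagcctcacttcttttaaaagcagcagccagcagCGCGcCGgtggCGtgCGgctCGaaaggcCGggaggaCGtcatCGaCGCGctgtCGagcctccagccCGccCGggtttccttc
OXCT1, window 2, chr5:41843658-41843907, minus strand: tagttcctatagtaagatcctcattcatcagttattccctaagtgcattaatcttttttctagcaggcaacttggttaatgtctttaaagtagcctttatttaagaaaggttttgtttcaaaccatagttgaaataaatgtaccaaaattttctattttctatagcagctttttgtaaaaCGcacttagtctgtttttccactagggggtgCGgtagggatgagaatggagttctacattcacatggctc
ACSS1, window 1, chr20:25058140-25058389, minus strand: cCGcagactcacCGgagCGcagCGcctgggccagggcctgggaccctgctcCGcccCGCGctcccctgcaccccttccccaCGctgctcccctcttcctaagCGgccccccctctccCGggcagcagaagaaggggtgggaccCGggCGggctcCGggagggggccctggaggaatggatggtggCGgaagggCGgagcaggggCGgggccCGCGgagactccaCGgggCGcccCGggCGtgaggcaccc
ACAT1, window 1, chr11:108121317-108121566, plus strand: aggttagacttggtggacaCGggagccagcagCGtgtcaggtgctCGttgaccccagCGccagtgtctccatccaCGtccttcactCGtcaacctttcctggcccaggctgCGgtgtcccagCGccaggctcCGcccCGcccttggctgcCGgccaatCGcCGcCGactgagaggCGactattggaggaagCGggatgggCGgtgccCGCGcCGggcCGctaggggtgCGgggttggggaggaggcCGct

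Window 1 of OXCT1 held 25 CG, a number that 21.6% of the 35114 windows of this length in the table reached or passed. Window 2 of OXCT1 held 2, reached or passed by 85.3%. The windows of ACSS1 and ACAT1 printed beside them held 22 CG (28.0% of windows) and 23 CG (25.8%), and the second windows of these genes held 10 CG (52.2%) and 27 CG (17.7%). The windows of ACSS2 held 3 and 18. Those of BDH1 held 1 and 34, and that of BDH2 held 2.

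ACSS3, the propionate-preferring enzyme, was the other gene with a deficit in both TET1 shRNA clones. RefSeq places it on chromosome 12. Cluster 16754729 stood at 5.21 for shTET1#1 and 4.64 for the array labelled shTET1#2, against 6.68 in the control clone. The differences were -1.47 and -2.04, or 2.77-fold and 4.12-fold lower, and the fitted difference was -1.76 ± 0.29 (SE), or 3.38-fold. Both clone values lie below the array medians.

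For ACSS3 the choice of control array made little difference. The vector gave 6.67, within 0.0092 of the control clone, so the clones stood at -1.46 and -2.03 against it. TET1-CD gave 6.47 and TET1-FL 6.78, and the mutants mTET1-CD and mTET1-FL gave 6.46 and 6.32. The 6 arrays outside the TET1 shRNA clones thus spanned 6.32 to 6.78 and did not overlap with the clones at 4.64 and 5.21. From high to low came TET1-FL, the control clone, the vector, TET1-CD, mTET1-CD, mTET1-FL, shTET1#1 and the array labelled shTET1#2. Neighbours among the first 6 were closer than the SD of 0.41 between the clones.

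Both OXCT1 and ACSS3 were at least 2-fold below the control clone in each TET1 shRNA clone, 2 of 5 genes, where 0.383% of kept clusters were. Since they were chosen for this, nothing is read from that count. Set against the vector, ACSS3 alone of the 5 was at least 2-fold lower in each clone, where 1.04% of kept clusters were. Both genes had each clone below all of the other 6 arrays, where 6.50% of kept clusters did. The counts against the vector and against the other 6 arrays reuse the same clone values, so nothing is read from them either. In the fit across all clusters, 0% passed for TET1 shRNA minus control shRNA (limma, Benjamini-Hochberg adjusted p under 0.05), and 2294 had an unadjusted p under 0.05. For TET1, cluster 16705381 differed from the control clone by -0.67 for shTET1#1 and -0.15 for the array labelled shTET1#2. OXCT1 and ACSS3 were lowest in the array labelled shTET1#2. Each of these values rests on 1 array, and whether the genes follow TET1 was not tested.

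**Figure D2:**
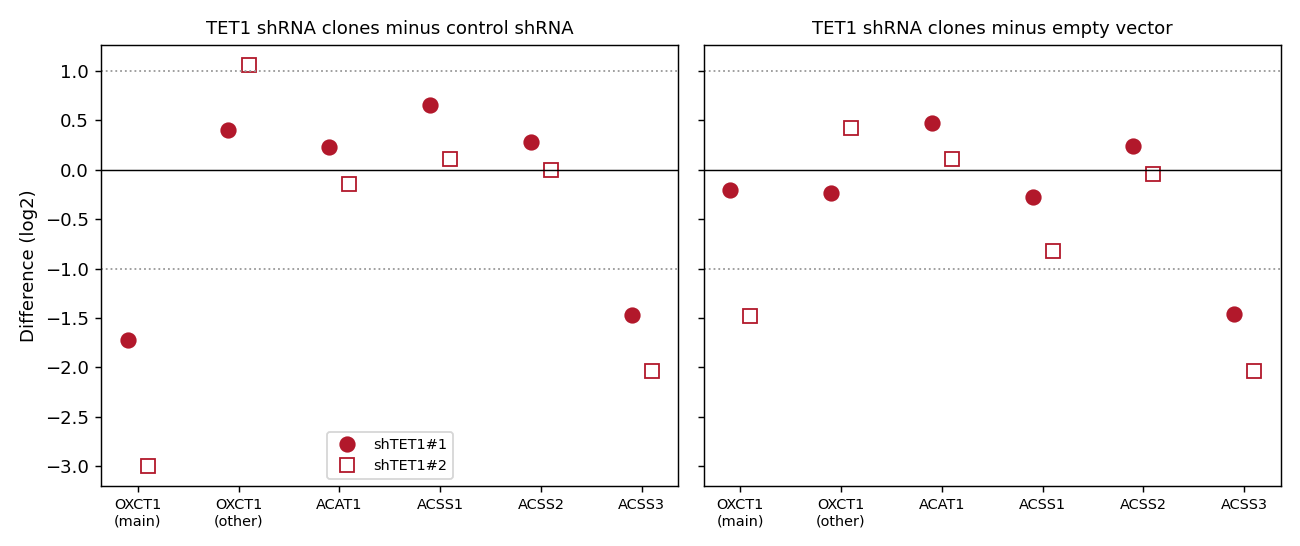
Differences (y axis, log2) of shTET1#1 (filled circles) and the array labelled shTET1#2 (open squares) from the control shRNA clone (left) and from the empty vector (right) for the 6 transcript clusters, with dotted lines at 2-fold. OXCT1 16995809 (main) lies at -1.72 and -3.00 on the left and at -0.21 and -1.48 on the right, while ACSS3 stays at -1.47 and -2.04 and at -1.46 and -2.03.

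ACAT1, the thiolase that acts after OXCT1, showed no deficit of this kind. Its gene lies on chromosome 11. Cluster 16730819 stood at 7.99 for shTET1#1 and 7.62 for the array labelled shTET1#2, against 7.77 in the control clone. The clones lay on either side of the control, at 0.23 and -0.14. TET1-CD gave 7.49, TET1-FL 7.23, mTET1-CD 7.30 and mTET1-FL 7.09, against 7.52 with the vector. The 4 plasmid arrays were the lowest of the 8, and the 3 shRNA arrays the highest.

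ACSS1, the mitochondrial acetate enzyme, had its highest signal with the empty vector. Its gene lies on chromosome 20. Cluster 16918023 stood at 7.40 for shTET1#1 and 6.86 for the array labelled shTET1#2, against 6.75 in the control clone. It stood at 6.71 with TET1-CD, 6.87 with TET1-FL, 6.87 with mTET1-CD and 6.91 with mTET1-FL, against 7.68 with the vector. It was the only gene of the 5 with the vector above each of the other 7 arrays, where 15.0% of kept clusters had that order. The direction for the TET1 shRNA clones turned with the control array: the fitted difference was 0.38 from the control clone and -0.55 from the vector.

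ACSS2, which makes cytosolic and nuclear acetyl-CoA, was the steadiest. Its gene also lies on chromosome 20. Cluster 16912975 stood at 7.37 for shTET1#1 and 7.09 for the array labelled shTET1#2, against 7.09 in the control clone. It stood at 7.13 with TET1-CD, 6.99 with TET1-FL, 7.09 with mTET1-CD and 7.12 with mTET1-FL, against 7.13 with the vector. Its whole range was 0.38 in log2, against 3.00 for OXCT1 16995809, 2.14 for ACSS3, 0.97 for ACSS1 and 0.91 for ACAT1.

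The plasmid comparisons share no array with the shRNA clones and could be tested. Their SE is moderated by limma: it joins 2 residual degrees of freedom, 1 of them the difference between the TET1 shRNA clones, with a spread estimated over all clusters (prior SD 0.154, 2.89 degrees of freedom). The difference of OXCT1 between clones therefore enters its SE here. The difference between wild-type and mutant plasmids concerns the catalytic function of TET1. The TET1 signal of cluster 16705381 also differed between them, by -0.63 in CD and -0.25 in FL. OXCT1 16995809 differed by 0.12 ± 0.42 (SE), with 0.14 in the CD construct and 0.096 in FL. ACSS3 differed by 0.23 ± 0.24, with 0.012 in CD and 0.46 in FL. ACAT1 differed by 0.16 ± 0.17, ACSS1 by -0.10 ± 0.21 and ACSS2 by -0.039 ± 0.15. Each difference was about as large as its SE or smaller, and none passed (limma adjusted p = 1 for all 5). Of the 28946 clusters 0% passed, and 567 had an unadjusted p under 0.05.

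TET1 plasmids minus vector gave ACSS1 the largest difference, at -0.84 ± 0.24 (SE), or 1.79-fold lower, with 4 of 4 plasmids below the vector, at -0.97 to -0.77. It did not pass over all clusters (limma adjusted p = 0.246, unadjusted p = 0.0174). OXCT1 16995809 stood at 0.48 ± 0.47, above the vector with 4 of 4 plasmids, at 0.66 for TET1-CD, 0.43 for TET1-FL, 0.52 for mTET1-CD and 0.33 for mTET1-FL (limma adjusted p = 0.71). ACAT1 stood at -0.24 ± 0.19, below the vector with 4 of 4 plasmids, ACSS3 at -0.16 ± 0.27 and ACSS2 at -0.050 ± 0.17 (limma adjusted p = 0.613, 0.845 and 0.94). Each of these differences rests on the same vector array, so 4 of 4 plasmids on 1 side of it is no replication. How many of all kept clusters have 4 of 4 plasmids on 1 side was not analysed here. None of the clusters passed (0%), with 4352 at an unadjusted p under 0.05.

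FL minus CD was small for every one of the 5 genes. ACAT1 stood at -0.24 ± 0.17 (SE), lower with FL in wild-type and in mutant form, and OXCT1 16995809 at -0.21 ± 0.42, again lower in both forms. ACSS1 stood at 0.10 ± 0.21, ACSS3 at 0.082 ± 0.24 and ACSS2 at -0.055 ± 0.15. None passed (limma adjusted p = 0.631 to 0.934), nor did any cluster (0%, with 3975 at an unadjusted p under 0.05). For OXCT1 16984331 wild-type minus mutant was -0.083, the plasmids stood 0.030 from the vector and FL stood 0.13 from CD, and none passed (limma adjusted p = 1, 0.983 and 0.884).

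**Figure D3:**
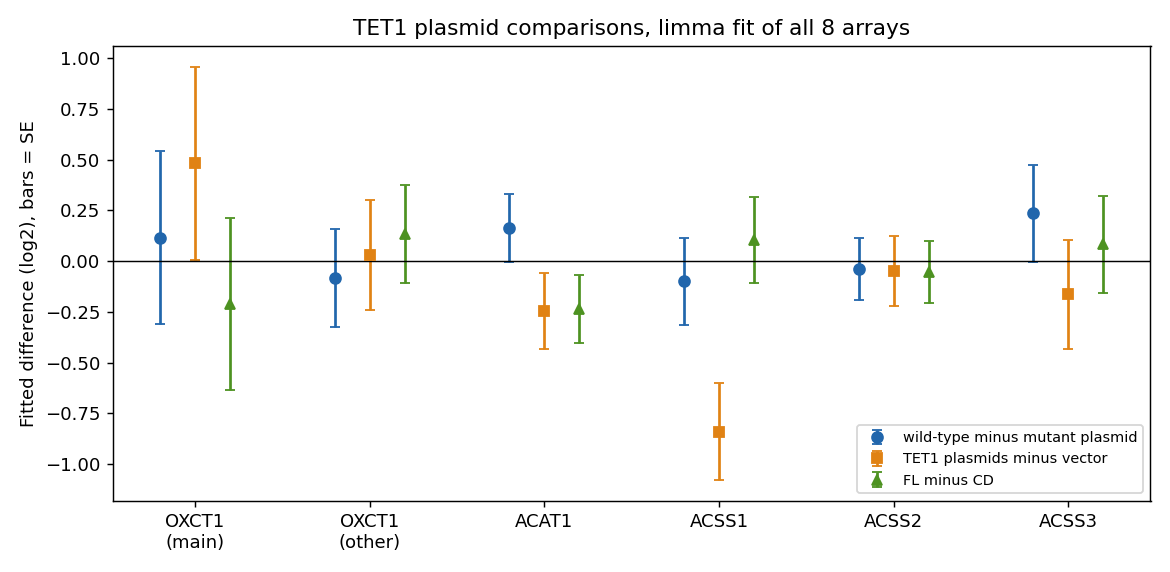
Fitted differences (y axis, log2, bars are SE) for the 6 transcript clusters (x axis) in wild-type minus mutant (circles), TET1 plasmids minus vector (squares) and FL minus CD (triangles), from a fit of all 8 arrays. ACSS1 lies furthest from 0, at -0.84 for plasmids minus vector, and most other bars cross 0.

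Genes beside OXCT1 and ACSS3 were read to see whether the deficit in the TET1 shRNA clones extended along the chromosome. The 3 nearest named genes on either side of OXCT1 differed from the control clone by -0.22 to 0.11 for shTET1#1 and by -0.50 to 0.53 for the array labelled shTET1#2. Of these C7, MROH2B and C6 did not meet the filter on low signal. RIMOC1, the nearest measured gene beyond the OXCT1 start, differed by 0.053 and -0.080, FBXO4 by 0.091 and -0.50, and GHR, the growth hormone receptor, by -0.013 and 0.53. None of the 6 was 2-fold lower than the control clone in either TET1 shRNA clone.

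Around ACSS3, 4 of the 6 nearest named genes met the filter. LIN7A differed by 0.083 for shTET1#1 and -0.61 for the array labelled shTET1#2, METTL25 by -0.15 and -0.77, TMTC2 by -0.24 and -0.26, and CCDC59 by -0.0041 and -0.15. METTL25 was also 1.29 higher in the control clone than with the vector. MIR617 and MIR618, which lie inside LIN7A, did not meet the filter on low signal and gave 0.38 and -0.20, and -0.10 and -1.54. MIR4699, which lies inside ACSS3, did not meet it either and gave -0.67 and -0.53. The median over all kept clusters was 0.00049 for shTET1#1 and -0.031 for the array labelled shTET1#2.

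**Figure D4:**
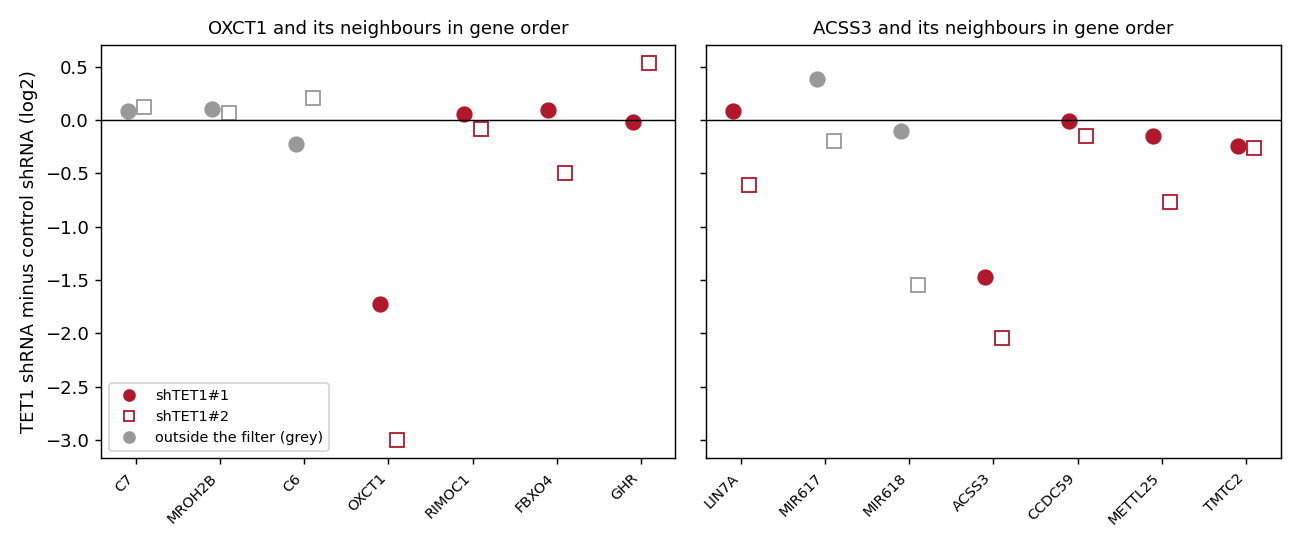
Differences from the control shRNA clone (y axis, log2) of shTET1#1 (filled circles) and the array labelled shTET1#2 (open squares) for OXCT1 (left) and ACSS3 (right) and the 3 nearest named genes on either side, in gene order, with genes outside the filter in grey. The kept neighbours of OXCT1 lie between -0.50 and 0.53, and those of ACSS3 between -0.77 and 0.083.

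Among 1452 named clusters with a range of at least 1 over the arrays, those most like OXCT1 16995809 in Pearson r over the 8 arrays were CD24 (0.942), LUC7L2 (0.940) and GFRA3 (0.917). Those most like ACSS3 were SRPRA (0.967), CLMP (0.960) and TFPT (0.932). OXCT1 and ACSS3 themselves correlated at r = 0.832 over the 8 arrays. Both were chosen for low values in the same 2 TET1 shRNA clones, so nothing is read from this r. OXCT1 correlated at -0.14 with ACAT1, -0.29 with ACSS1 and -0.20 with ACSS2. These values describe 8 arrays that share 1 normalization and in which the 2 TET1 shRNA clones carry much of the range.

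The wider pathway lists held 73 genes, of which 43 had a named transcript cluster and 35 met the filter on low signal. In TET1 shRNA minus control shRNA their median was -0.072, against -0.010 over all kept clusters, with 21 of 35 (60%) below 0, against 52.2% of all kept clusters. Their fitted differences spanned -0.34 to 0.79. None of the 35 was 2-fold from the control clone in either TET1 shRNA clone, where 4.45% of kept clusters were. Values for single genes are given below as the differences of shTET1#1 and of the array labelled shTET1#2 from the control clone, in that order, since for several genes 1 clone carries the fitted mean. Among genes of ketone synthesis HMGCLL1, a hydroxymethylglutaryl-CoA lyase, stood at 0.042 and -0.23, and the synthase HMGCS1 at 0.13 and -0.15. In ketone use the acetoacetyl-CoA synthetase AACS stood at 0.0046 and -0.16, and the cytosolic thiolase ACAT2 at -0.061 and -0.082. OXCT2, the testis paralogue of OXCT1, had a cluster below the median on all 8 arrays, at 4.31 to 4.75. The transporter chaperone BSG stood at -0.059 and -0.18.

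Of 23 other acyl-CoA synthetases listed, 15 had a cluster and 9 were kept, 4 of them below 0 and 5 above in the fitted difference, with a median of 0.014. The medium-chain genes ACSM1 and ACSM3 stood highest, with fitted differences of 0.79 ± 0.16 and 0.51 ± 0.16 (SE). ACSM1 gave 5.53 for shTET1#1 and 5.35 for the array labelled shTET1#2, against 4.65 in the control clone, all near or below the array medians. ACSM3 gave 5.92 and 5.73, against 5.31. The control clone was the lowest of the 8 arrays for both. Of the long-chain enzymes ACSL4 stood at -0.056 and -0.23, and ACSL1 at -0.0039 and -0.10.

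Of the enzymes that make succinyl-CoA, the donor for OXCT1, DLST stood at -0.22 and -0.46, and OGDH at 0.018 and -0.29. In beta-oxidation CPT2 stood at 0.0036 and -0.50, and ACAA1, a peroxisomal thiolase on the same list, at 0.37 and 0. In fatty acid synthesis FASN stood at -0.084 and -0.27, and ACACA at -0.096 and -0.19. Of the regulators FOXA2, a hepatic transcription factor, stood at 0.26 and 0.79, and PPARA, a nuclear receptor that drives ketone synthesis in liver, at 0.51 and 0.060. These are differences in 2 clones against 1 control array, and no test is drawn from them.

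**Figure D5:**
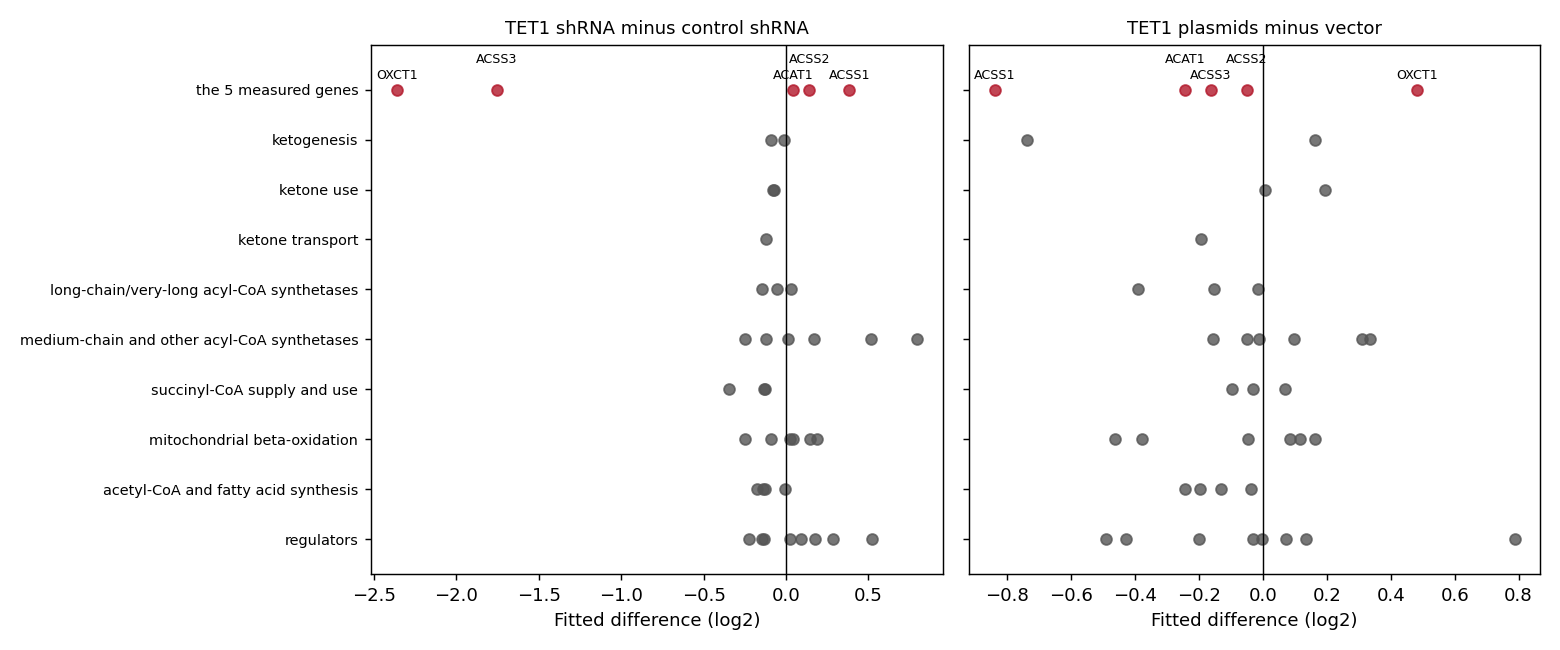
Fitted differences (x axis, log2) for TET1 shRNA minus control shRNA (left) and TET1 plasmids minus vector (right), 1 point per gene that met the filter, with the 5 measured genes in red and 9 pathway lists in grey. On the left the lists span -0.34 to 0.79, with OXCT1 at -2.36 and ACSS3 at -1.76, which were chosen on this difference, and on the right ACSS1 at -0.84 lies near the lowest list gene at -0.74.

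In TET1 plasmids minus vector the 35 pathway genes had a median of -0.032, against 0.0014 over all kept clusters. Of the 35, 13 lay above 0 and 22 (62.9%) below, against 49.8% of all kept clusters below. None passed (limma, lowest adjusted p = 0.206). HMGCS1, the cytosolic synthase of the sterol pathway, stood at -0.74 ± 0.17 (SE, limma adjusted p = 0.208), and like ACSS1 it was highest with the vector, at 8.08. The deacetylase SIRT1 stood at 0.79 and SIRT5 at -0.49 (limma adjusted p = 0.206 and 0.246). CPT1A, which starts fatty acid entry into mitochondria, stood at -0.46, HADH at -0.38, ACSL6 at -0.39 and ACSL1 at -0.15. ACSM5 stood at 0.33, ACSM3 at 0.31, ACACB at -0.24, ACACA at -0.20, ACAT2 at 0.20, BSG at -0.19 and HMGCLL1 at 0.16. DLD (-0.098), DLST (0.070) and AACS (0.0057) were the smallest named.

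In wild-type minus mutant the 35 genes had a median of 0.012, with 19 above 0 and 16 below, and a span of -0.20 to 0.34. In FL minus CD the median was -0.074, with 15 above 0 and 20 below, and a span of -0.47 to 0.56. None passed in either comparison (limma, lowest adjusted p = 1 and 0.231). The medians over all kept clusters were 0.0027 and 0.0031. Those below 0 were 45.7% and 57.1% of the 35 genes, against 49.0% and 49.3% of all kept clusters.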

How the data were processed

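Total RNA from 8 HEK293T samples was amplified (100 ng), biotin-labelled and hybridised to Affymetrix arrays, per the labels' protocols. The deposited values are log2 signals, 1 per transcript cluster and array, made with RMA and Affymetrix Expression Console 1.3.1 among the tools, per the submitters' processing notes. The genome build was not given in the sources used here. Of 53981 rows 364 held no value. Gene names came from the platform table (16098 named clusters), and positions, neighbours and promoter windows from RefSeq, GRCh38.p14.

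Clusters above their array's median on at least 2 of 8 arrays were fitted in limma 3.58.1 (lmFit and eBayes in R 4.3.3), all 8 arrays together, with 1 term for each of control shRNA, TET1 shRNA, vector and the wild-type and mutant plasmids, and 1 for construct (FL 0.5, CD -0.5). The 2 residual degrees of freedom come from how far apart the 2 TET1 clones lie and how far the effect of the mutation differs from FL to CD. Adjusted p-values are Benjamini-Hochberg over 28946 clusters. The fit was tested on simulated data. The genes and lists were chosen with earlier results of these data known. Named were all 5 genes, the 2 kept genes per list with the largest absolute difference in each comparison described for the lists, 3 neighbours a side and the 3 most alike clusters. OXCT2 was named after its values were seen. Alternatives were cyclic loess, median centring, no filter, cluster choice, leaving out each array, the 5 plasmid and vector arrays alone, and the vector as control. The number of arrays limits the precision.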

Additional observations from a re-analysis of the deposited data

How the results depend on the processing

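The difference read for OXCT1 in TET1 shRNA minus control shRNA depended on the transcript cluster, and its size on the control array. The value of -2.36 became -0.81 as the mean of both clusters and -0.85 against the vector. It was 0.73 with the other cluster, 16984331, an alternative chosen after seeing the data. The clusters with the nearest identifiers to 16984331 belong to plus-strand genes, whereas OXCT1 lies on the minus strand. Which strand its probes read was not analysed here, so neither 0.73 nor the mean of both clusters is read as a result for OXCT1 RNA. ACSS1 turned to -0.55 against the vector. Leaving out either TET1 shRNA clone gave -3.00 to -1.72 for OXCT1 and -2.04 to -1.47 for ACSS3. With each array centred on its median, 1 cluster passed in TET1 plasmids minus vector, against 0. Leaving out 1 plasmid array gave -0.14 to 0.31 for FL minus CD of ACSS3, -0.14 to 0.030 for FL minus CD of ACSS2 and -0.12 to 0.046 for wild-type minus mutant of ACSS2, none of which passed. The cause was not tested. In TET1 shRNA minus control shRNA, leaving out 1 clone gave -0.14 to 0.23 for ACAT1, 0 to 0.28 for ACSS2 and 0.11 to 0.66 for ACSS1, and median centring gave -0.0042 for ACAT1, against 0.043, so ACAT1 has no settled direction. Of the other values, 172 tested kept direction and side of the threshold, 45 counts stayed within 1.5 times, and 53 untested, these included, moved by less than 1 SD between the TET1 shRNA clones. Much of this was fixed in advance. Leaving out 1 of the clones always moves their mean by less than that SD. Dropping the filter, the vector or a plasmid array cannot change the TET1 shRNA difference. Leaving out a shRNA array likewise cannot turn a plasmid comparison, so nothing is read from these counts. Without the control clone or the vector, the comparison that needs it could not be fitted. No paired analysis was possible because the groups share no replicate numbers that mark a pair. With 8 arrays and 1 per condition, the precision is limited by their number.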
